A study of Mus musculus with 8 samples.

Results

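Described here are WFS1 ChIP-seq peaks around 10 myosin heavy chain genes: Myh1, Myh2, Myh3, Myh4, Myh6, Myh7, Myh8, Myh9, Myh10 and Myh11. These genes were listed by name and not by a cut-off on measured values, but with earlier results of these data known. They are 10 of the 21938 protein-coding genes annotated on the nuclear chromosomes, and 37 of the 22292 joined WFS1 peaks lay in them or within 100 kb of them. The series asked where WFS1, a membrane protein of the endoplasmic reticulum and the inner nuclear membrane, associates with the genome of myoblasts. Peak lists of 2 libraries were used, both from wildtype C2C12 cells, a mouse myoblast line, in the proliferating stage, crosslinked with DSG and formaldehyde and immunoprecipitated with a WFS1 antibody, after 30 and after 36 cycles of sonication. The 36-cycle library is a part of the same immunoprecipitate that received 6 further cycles, so each condition has 1 library, neither is a replicate of the other, and no test was possible. The other 6 libraries of the series, which are the wildtype inputs and the inputs and WFS1 ChIP of WFS1 knockout cells that stably express FlagTag WFS1, were not used here. The lists hold positions alone, without heights or read counts, so the depth is unknown, a gene without a peak is a gene without a call, and the label of the cells could not be checked against marker genes.

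Class II myosins are the motors that pull on actin filaments, and each molecule holds a pair of heavy chains, whose heads bind actin and split ATP and whose tails assemble into filaments, together with essential and regulatory light chains. Striated muscle chooses among heavy chain genes that set the speed of contraction. Myh3 and Myh8 encode the embryonic and perinatal chains of developing and regenerating muscle, Myh2, Myh1 and Myh4 the adult fast IIa, IIx and IIb chains, Myh6 the alpha cardiac chain, and Myh7 the beta cardiac chain that is also the chain of slow fibres. Myh11 encodes the smooth muscle chain, and Myh9 and Myh10 encode the nonmuscle chains IIA and IIB, which serve adhesion, migration and division in most cells. Proliferating myoblasts use the nonmuscle chains, and the sarcomeric chains are switched on when the cells differentiate.

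The peaks were concentrated at 1 of the 10 genes. Myh9 had 27 joined peaks in the gene or within 100 kb of it, and the other 9 genes together had 10. Peaks were found at Myh6 (4), Myh7 (3), Myh3 (2), Myh11 (2), Myh10 (2) and Myh2 (1), where neighbouring genes share peaks, and none was found at Myh1, Myh4 and Myh8. Thus 7 of 10 members had at least 1 peak in this range, beside 73.4% of all protein-coding genes, and 2 of 10 had a peak inside the gene, beside 24.6%. Within 1 kb of the start site, Myh9 alone had a peak, beside 13.2% of all protein-coding genes. That peak was in the 36-cycle list alone, and a peak of Myh3 called in both lists lay just outside this limit, at 1.09 kb. At least as many peaks as around Myh9 were counted around 22 protein-coding genes with Myh9 included, or 0.100%, and the median protein-coding gene had 2.

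**Figure D1:**
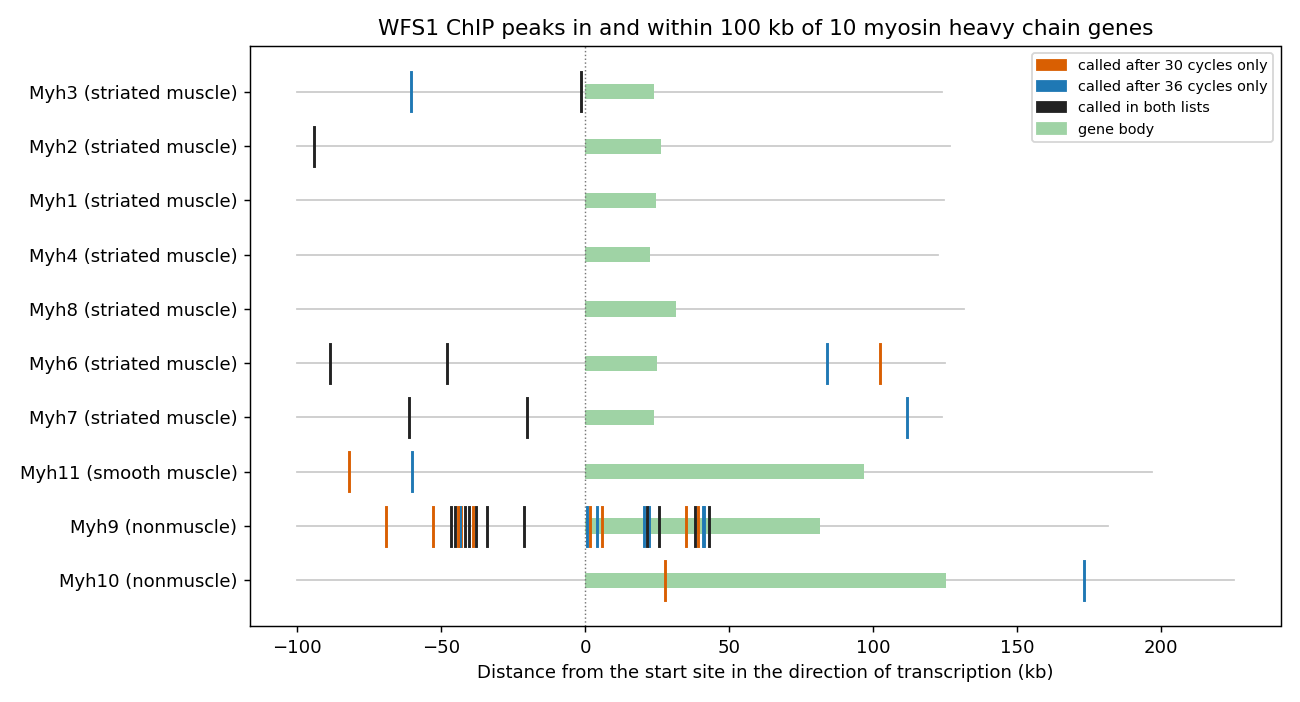
Joined WFS1 peaks around the 10 genes by distance from the start site in kb, in the direction of transcription, with 1 line per gene, gene bodies in green, and peaks as vertical strokes coloured by the list that called them. The 27 strokes of Myh9 lie in the first part of the gene and upstream of it, and Myh1, Myh4 and Myh8 have none.

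The muscle genes were compared with the nonmuscle genes by peaks per Mb of their joined windows, the genes with 100 kb on each side. The 8 muscle genes had 8 peaks in 0.98 Mb, or 8.16 per Mb (95% exact Poisson interval 3.52 to 16.1), next to 8.18 per Mb for the assembled genome. The nonmuscle pair had 29 peaks in 0.607 Mb, or 47.8 per Mb (32 to 68.7). The ratio of nonmuscle to muscle density was 5.86, with an exact interval of 2.61 to 14.8 that covers counting error only and treats peaks as independent, which close neighbours may not be. The ratio rests on Myh9, since Myh10 alone had 6.15 peaks per Mb (0.745 to 22.2), and the ratio without Myh9 was 0.754 (0.078 to 3.78). Myh9 alone had 95.9 peaks per Mb (63.2 to 139.5), and the other 9 genes together had 7.66 (3.67 to 14.1). Counted inside gene bodies, the 8 muscle genes had no peak in 0.275 Mb, which allows up to 13.4 per Mb by the same interval, and the nonmuscle pair had 15 in 0.207 Mb, of which 14 were in Myh9. A difference between muscle and nonmuscle genes as classes was therefore not shown by these peaks apart from Myh9.

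Myh9 came first in both libraries. In the 30-cycle list, 20 peaks lay in or within 100 kb of Myh9, 3 of Myh6, 2 of Myh7, and 1 each of Myh2, Myh3, Myh10 and Myh11. In the 36-cycle list, 19 lay in this range of Myh9, 3 of Myh6, 3 of Myh7, 2 of Myh3, and 1 each of Myh2, Myh10 and Myh11. Myh1, Myh4 and Myh8 had no peak in either list. The 30-cycle list held 18283 peaks in all and the 36-cycle list 12674, so the numbers around Myh9 were nearer to each other than the lists are in size.

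**Figure D2:**
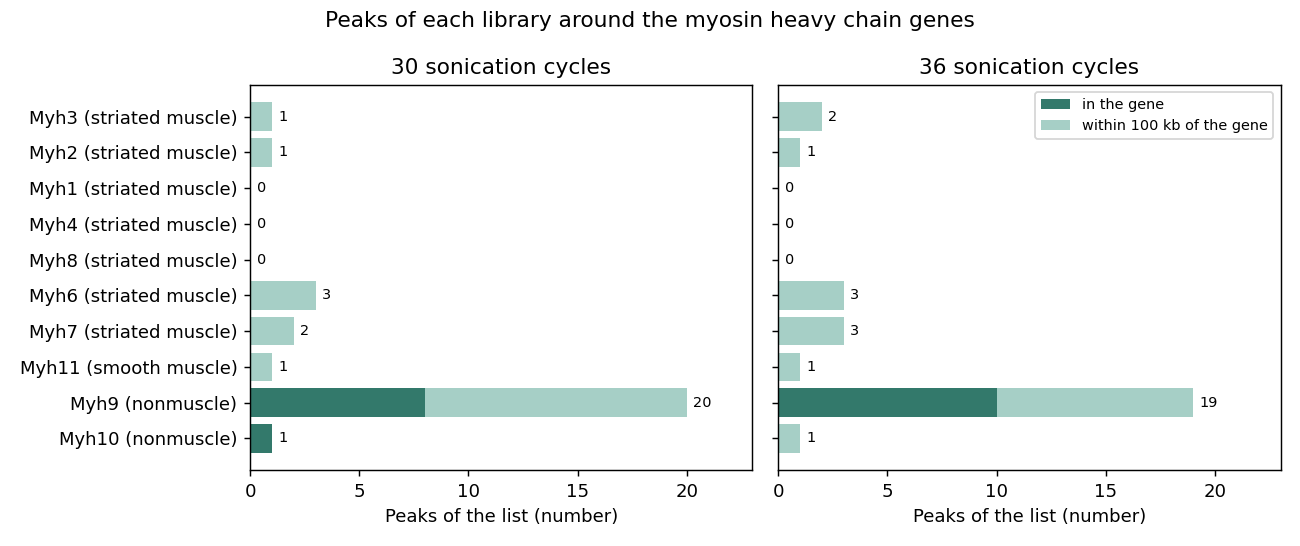
Number of peaks of each list in the gene (dark) and within 100 kb of it (light) for the 10 genes, after 30 cycles on the left and 36 cycles on the right. Myh9 has 20 and 19 peaks, and no other gene has more than 3 in either list.

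The embryonic and perinatal genes Myh3 and Myh8, the adult fast genes Myh2, Myh1 and Myh4, and Myh13, which encodes a chain of extraocular muscle and is no member, stand side by side on the forward strand of chromosome 11. The cluster extends over 293.3 kb, from 67078300 to 67371586 on GRCm38, and it held no peak of either list. At the mean density of chromosome 11, 13.7 joined peaks per Mb, a stretch of this length would hold 4.01, and a count of 0 allows up to 3.69 by the exact Poisson interval. That interval treats peaks as independent, which close neighbours may not be, so these values do not test whether the cluster is depleted. All intervals between the genes were empty as well, among them the longest, 68.7 kb from Myh3 to Myh2, in which the long noncoding RNA gene 2310065F04Rik lies. With 100 kb on each side, the cluster had 2 peaks, both upstream of Myh3, where the chromosomal mean would give 6.75.

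The stretch without peaks ran from 67077207 to 67589047, over 511.8 kb. It began upstream of Myh3 and ended 217.5 kb beyond Myh13 at a peak of 242 bp called after 30 cycles only. Of the 1670 stretches between neighbouring peaks of chromosome 11, 35 were longer (2.1%), and the median was 20.2 kb. Of the 22001 such stretches on all autosomes, 990 (4.5%) were longer. This stretch was taken because it holds the cluster, and a fixed place falls into long stretches more often than their share by number. These shares therefore do not measure how rare such a stretch is around a gene. On the other side of the pair of peaks upstream of Myh3, the next stretch without a peak was 1210.0 kb long. Thus the stretch without peaks ran well past the cluster on the side of Myh13, while on the side of Myh3 it began at a peak 1.09 kb upstream of that gene. Between Myh13 and Myh10, which lie 1320.0 kb apart on the same chromosome, 22 joined peaks were found, or 16.7 per Mb.

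**Figure D3:**
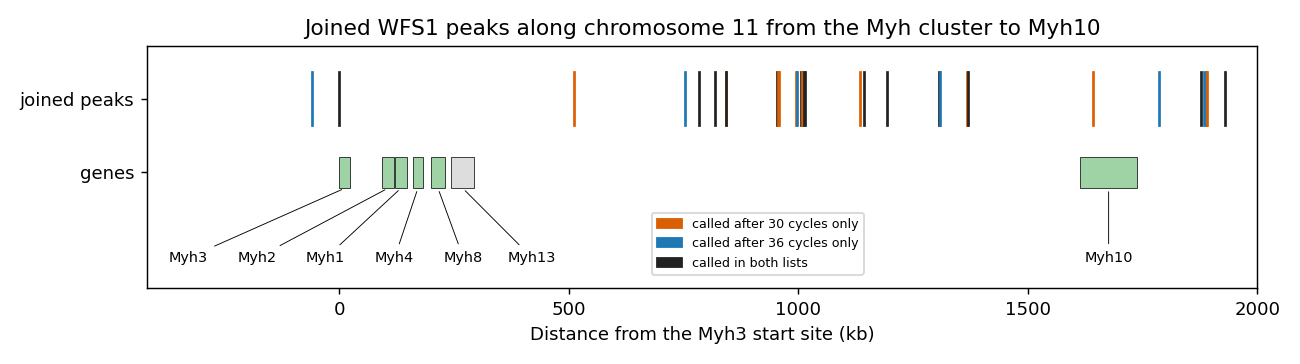
Genes (boxes, with Myh13 in grey) and joined peaks (strokes, coloured by list) on chromosome 11 by distance from the Myh3 start site in kb. The 6 genes of the cluster hold no peak, 2 peaks lie upstream of Myh3, and peaks are again found between the cluster and Myh10.

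Myh3 (ENSMUSG00000020908, chromosome 11, 67078300 to 67102291, forward strand) was the muscle gene with the nearest peak to its start site. The peak ended 1.09 kb upstream of the start site, from 67076801 to 67077206, was 406 bp wide and was called in both lists, with a width of 400 bp after 30 cycles and 363 bp after 36 cycles. It overlapped no annotated gene. The same peak was the nearest one to Myh2 at 93.8 kb, to Myh1 at 122.8 kb, to Myh4 at 160.8 kb and to Myh8 at 199.9 kb, so these distances follow from the places of the genes in the cluster. A further peak 60.2 kb upstream of Myh3, 498 bp wide and found in the 36-cycle list alone, was 7.01 kb from the start site of its neighbour Tmem220.

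Central bases of both peaks upstream of Myh3 are shown because they are the only calls near the cluster. Motifs were searched on both strands of the central 200 bp, namely CAGCTG, the E-box of MyoD-type factors, TGACTCA, the site of AP-1, CATTCC, the MCAT site of TEAD factors, AACCACA, a RUNX site, and a loose MEF2-type pattern of 10 bases. In the last, the 3 outer bases on each side were fixed and the 4 middle bases were free, so it does not require the AT-rich centre of sites that MEF2 factors bind. Capitals mark these motifs or their reverse complements, and the forward strand of GRCm38 is printed from 5′ to 3′.
Myh3 peak at 1.09 kb, chr11:67076904-67077103: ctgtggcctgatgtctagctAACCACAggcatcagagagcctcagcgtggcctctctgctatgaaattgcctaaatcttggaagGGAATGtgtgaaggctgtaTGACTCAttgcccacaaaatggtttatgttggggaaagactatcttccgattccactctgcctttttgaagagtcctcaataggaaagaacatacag
Myh3 peak at 60.2 kb, chr11:67017791-67017990: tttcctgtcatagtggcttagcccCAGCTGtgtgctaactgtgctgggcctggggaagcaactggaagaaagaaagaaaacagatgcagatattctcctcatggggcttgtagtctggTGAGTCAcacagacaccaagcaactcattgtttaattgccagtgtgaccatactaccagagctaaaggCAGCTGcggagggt
The peak at 1.09 kb held 1 AACCACA, 1 CATTCC and 1 TGACTCA and no CAGCTG. The peak at 60.2 kb held 2 CAGCTG and 1 TGACTCA.

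Myh6 (ENSMUSG00000040752, 54941921 to 54966927) and Myh7 (ENSMUSG00000053093, 54970684 to 54994626) follow each other on the reverse strand of chromosome 14. Neither gene held a peak, and none lay between them, where the antisense RNA gene Mhrt is annotated, or at Mir208a and Mir208b inside the genes. Within 100 kb lay 4 distinct peaks, or 15.8 per Mb (4.31 to 40.5) over the joined window, and the chromosome had 6.82 per Mb. Of these 4 peaks, 3 stood within 1 kb of the start site of another gene. The nearest, from 55014598 to 55015076 (479 bp, both lists), lay 20 kb upstream of Myh7 and 47.7 kb upstream of Myh6, and 0.378 kb from the start site of Ngdn. A peak of 630 bp in both lists, 60.6 kb upstream of Myh7, overlapped an exon of the antisense gene Gm20687 and also lay in Zfhx2os. On the other side, a peak of 289 bp after 36 cycles only lay 0.188 kb from the start site of Bcl2l2, which encodes a survival protein of the BCL2 family, with the start site of Gm20521 beside it. A peak of 276 bp after 30 cycles only lay in Homez, 102.3 kb from the Myh6 start site, beyond 100 kb of Myh7.

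Myh11 (ENSMUSG00000018830, 14194535 to 14291372, reverse strand of chromosome 16) is 96.8 kb long and held no peak. Among the 1550 protein-coding genes within 25% of its length, Myh11 included, 50.1% held at least 1. Upstream, 59.9 kb from the start site, the 36-cycle list alone had a narrow peak of 223 bp, and 89.2% of its bases are masked as repeats in the reference. A peak of 334 bp after 30 cycles only lay 81.7 kb upstream, inside Abcc1, which encodes a drug exporter. The lists had no peak of Myh11 in common.

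Myh10 (ENSMUSG00000020900, 68691559 to 68816632, forward strand of chromosome 11), the longest member at 125.1 kb, held 1 peak. It lay 27.6 kb downstream of the start site, from 68719121 to 68719473 (353 bp), was called after 30 cycles only and overlapped no exon. Of the 1284 protein-coding genes within 25% of its length, 55.7% held at least 1 peak, and the median was 1. The other peak within 100 kb, 250 bp wide and called after 36 cycles only, overlapped an exon of Ndel1, which encodes a dynein regulator, beyond the end of Myh10. Hence the lists again shared no peak, and the 36-cycle list alone had its nearest peak 173.2 kb from the Myh10 start site. The intronic peak is shown because its centre held 2 CAGCTG, in capitals.
Myh10 peak at 27.6 kb, chr11:68719197-68719396: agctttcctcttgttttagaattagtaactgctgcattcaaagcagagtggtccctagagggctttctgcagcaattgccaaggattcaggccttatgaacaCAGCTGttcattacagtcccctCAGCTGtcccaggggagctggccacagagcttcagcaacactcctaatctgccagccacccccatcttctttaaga

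Myh9 (ENSMUSG00000022443, chromosome 15, 77760587 to 77842175, reverse strand, 81.6 kb) held 14 joined peaks and had 13 upstream, and none lay in the 100 kb beyond its end, where the apolipoprotein L genes Apol8, Apol9b and Apol7e are found. Chromosome 15 had 14.5 peaks per Mb, and the window around Myh9 had 6.6 times this density. Of 1718 protein-coding genes within 25% of its length, 45.6% held a peak, the median was 0, and 2 had 14 or more, with Myh9 as 1 of them. In the window around Myh9, 4.04% of bases were under peaks after 30 cycles and 3.09% after 36 cycles, compared with 0.317% and 0.193% of the assembled genome.

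**Figure D4:**
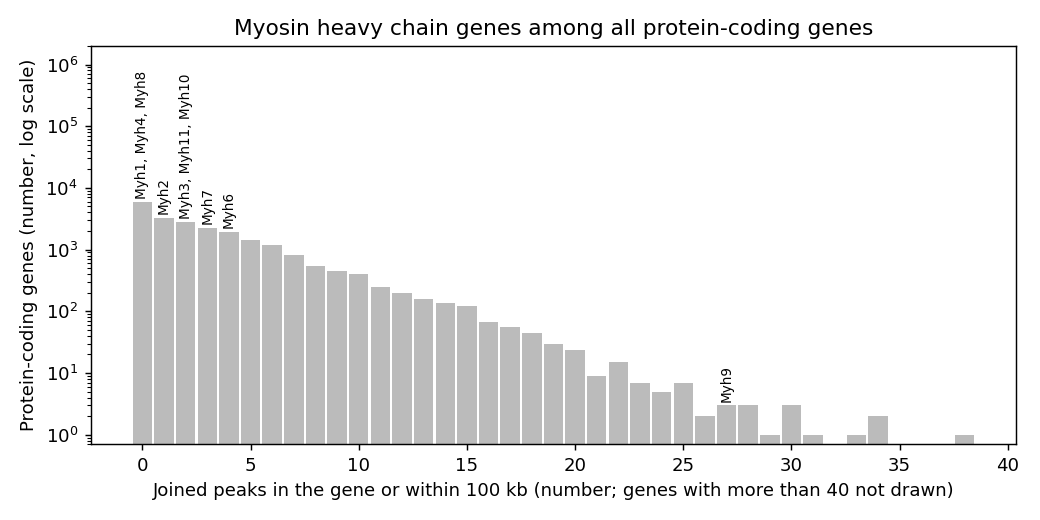
Number of protein-coding genes (log scale) by the number of joined peaks in the gene or within 100 kb, with the 10 myosin heavy chain genes named above their bars. Myh9 stands at 27 peaks, and the other 9 genes stand at 0 to 4.

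All 14 peaks inside Myh9 lay in the part nearest to its start. In the transcript with the most exons (ENSMUST00000016771, 41 exons), 8 lay in intron 1, which is 28.7 kb long, 0.682 to 25.2 kb from the start site, and 6 in intron 3, which is 10.8 kb long, 35.0 to 42.6 kb from it. None overlapped an exon of this transcript, and 1, after 30 cycles only at 35.0 kb, overlapped an exon of another Myh9 transcript. No peak was called in the rest of the gene, which carries most of its exons. In intron 1, 2 peaks were called in both lists, 2 after 30 cycles only and 4 after 36 cycles only, and in intron 3 each of these classes had 2.

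The peak nearest to the Myh9 start site, from 77841230 to 77841493, was called after 36 cycles only. It lay 0.682 kb inside the gene, was 264 bp wide and had the highest GC content of the 37 member peaks, 66.3%. In the 30-cycle list, the nearest peak lay 1.55 kb from the start site. Neither reached the 300 bases around the start site, from 250 before to 50 after it, that RefSeq promoters cover here. No peak overlapped a RefSeq promoter of any of the 9 members that matched by symbol, and the promoter of Myh11, which did not match, was not analysed here. The share of all RefSeq promoters that overlap a peak is not given here, so this absence cannot be read as a trait of these genes. Within the wider 1 kb of the start site, 13.2% of all protein-coding genes had a peak.

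Upstream of Myh9, the first peak lay 20.8 kb from the start site, from 77862976 to 77863474 (499 bp, both lists), and the second 33.5 kb from it (1061 bp, both lists). A dense group of 9 peaks followed, 37.4 to 46.8 kb upstream, from 77879590 to 77888958, with spaces of at most 2 kb between neighbours. In this group, 5 peaks were called in both lists, 3 after 30 cycles only and 1 after 36 cycles only, and their widths summed to 6196 bp over 9.37 kb. When all nuclear peaks were grouped by the same spacing, chosen after the peaks of Myh9 were seen, 17933 groups or single peaks resulted, and 10 had 9 or more peaks, including this one. The group held the widest peak of all members, from 77881748 to 77883255, with 1508 bp, of which 1406 bp were called after 30 cycles and 1479 bp after 36 cycles. Single peaks at 52.5 and 69.0 kb, both after 30 cycles only, were the last upstream, before the thioredoxin gene Txn2.

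No other gene is annotated between Myh9 and Txn2 among the coding, long noncoding and microRNA genes examined. The start site of Txn2 lies 86.8 kb from that of Myh9, and it was nearer than the Myh9 start site for 5 of the 13 upstream peaks, while a list of positions cannot show which gene a peak acts on. Of the 27 peaks, the nearest coding start site was that of Myh9 for 21.

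**Figure D5:**
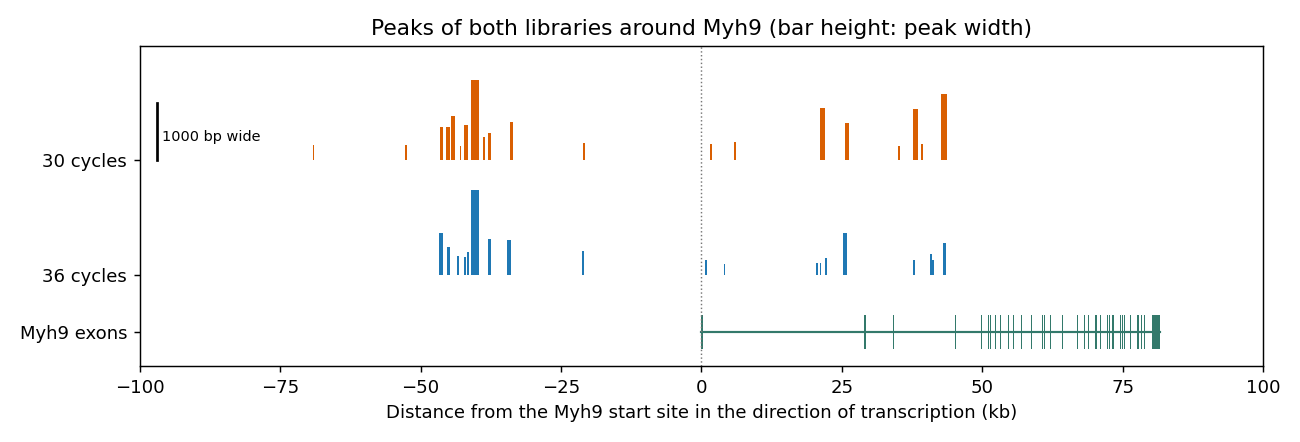
Peaks of the 30-cycle list (upper row) and 36-cycle list (lower row) around Myh9 by distance from its start site in kb, in the direction of transcription, with bar height as peak width (scale bar 1000 bp) and exons of the transcript with the most exons at the bottom. Both lists have their widest bars about 40 kb upstream, and neither has a bar in the exon-rich part of the gene.

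Among the 27 peaks of Myh9, 11 (40.7%, Wilson interval 24.5 to 59.3) were called in both lists, beside 35.4% of all joined peaks. After 30 cycles only 9 were called, beside 45.5% of all, and after 36 cycles only 7, beside 19.1% of all. The shared peaks were the wide ones, with a median of 917 bp and a range from 499 to 1508 bp. Those after 30 cycles only had a median of 281 bp (255 to 769), and those after 36 cycles only 264 bp (195 to 367). Joining can only widen a peak that both lists hold. Upstream, 7 of 13 peaks were shared, and inside the gene 4 of 14. Of the 10 peaks near the other members, 3 were shared, and their median width was 343.5 bp (223 to 630), compared with 376 bp for all joined peaks.

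Of the 37 member peaks, 8 held CAGCTG in the central 200 bp, beside 18.0% of all joined peaks, and 5 held TGACTCA, beside 17.9%. CATTCC was found in 8 (15.6% of all), AACCACA in 3 (10.6% of all) and the loose MEF2-type pattern in 1 (2.99% of all). Over whole peaks, which differ in width, CAGCTG was found in 12 of the 37, beside 32.8% of all joined peaks, and CATTCC in 11, beside 29.4%. TGACTCA was found in 15, of which 11 were around Myh9, beside 31.2% of all joined peaks, AACCACA in 5, beside 19.4%, and the loose MEF2-type pattern in 2, beside 7.18%. In the central 200 bp around Myh9, 6 of 27 peaks held CAGCTG, 2 TGACTCA and 6 CATTCC, and 11 held none of the 5 motifs, beside 50.5% of all joined peaks. By place, in the central 200 bp, CAGCTG was found in 5 of the 13 upstream peaks and in 1 of the 14 inside the gene. CATTCC was found there in 1 upstream and in 5 inside. This split was not planned and was not kept for CATTCC over whole peaks. In these, CATTCC was found in 9 of the 27, and all the added peaks lay upstream. CAGCTG was found in 10 of the 27 whole peaks, with added peaks both upstream and inside. In the RefSeq promoters, CAGCTG was present at Myh4 and Myh10, beside 16.3% of all 32851 promoters, and CATTCC at Myh1, Myh4, Myh6, Myh7 and Myh10, beside 14.7%. At Myh7 it was in 1 of 2 promoters. TGACTCA was at none of the matched members, beside 5.2%, and likewise AACCACA, beside 5.27%, and the loose MEF2-type pattern, beside 3.69%.

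Sequences of 5 Myh9 peaks are shown for the start of the gene, the first upstream peak and the dense group, on the forward strand, opposite to the gene. The first is the whole peak and the others are the central 200 bp.
Myh9 peak at 0.682 kb in intron 1, chr15:77841230-77841493: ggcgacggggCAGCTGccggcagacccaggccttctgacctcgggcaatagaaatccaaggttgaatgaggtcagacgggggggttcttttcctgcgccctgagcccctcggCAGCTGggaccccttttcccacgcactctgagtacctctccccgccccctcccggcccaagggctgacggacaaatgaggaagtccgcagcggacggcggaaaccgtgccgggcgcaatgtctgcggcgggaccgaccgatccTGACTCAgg
Myh9 peak at 20.8 kb upstream, chr15:77863125-77863324: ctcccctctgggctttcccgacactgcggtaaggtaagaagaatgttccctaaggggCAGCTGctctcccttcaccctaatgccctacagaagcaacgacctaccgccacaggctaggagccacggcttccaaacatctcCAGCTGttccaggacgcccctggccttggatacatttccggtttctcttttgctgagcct
Myh9 peak at 39.6 kb upstream, the widest, chr15:77882402-77882601: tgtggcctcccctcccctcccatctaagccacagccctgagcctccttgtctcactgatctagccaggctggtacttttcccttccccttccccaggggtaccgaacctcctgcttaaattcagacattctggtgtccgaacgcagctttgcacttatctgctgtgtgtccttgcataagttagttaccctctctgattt
Myh9 peak at 41.3 kb upstream, chr15:77883851-77884050: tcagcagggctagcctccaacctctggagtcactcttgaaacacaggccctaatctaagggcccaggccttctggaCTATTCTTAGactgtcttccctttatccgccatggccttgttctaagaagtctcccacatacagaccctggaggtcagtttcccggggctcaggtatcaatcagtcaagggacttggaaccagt
Myh9 peak at 44.8 kb upstream, chr15:77887178-77887377: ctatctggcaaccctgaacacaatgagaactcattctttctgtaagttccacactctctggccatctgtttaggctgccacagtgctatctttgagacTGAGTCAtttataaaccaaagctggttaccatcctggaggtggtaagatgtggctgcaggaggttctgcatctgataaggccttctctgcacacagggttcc
The peak in intron 1 held 2 CAGCTG and, close to its end, 1 TGACTCA. The centre of the peak at 20.8 kb held 2 CAGCTG, and that of the widest peak none of the motifs. The centre of the peak at 41.3 kb held the loose MEF2-type pattern, whose middle bases there are not all A or T. The centre of the peak at 44.8 kb held 1 TGACTCA, read as TGAGTCA on this strand. Outside these centres, the peak at 20.8 kb held 1 TGACTCA and 1 CATTCC, and the widest peak 2 TGACTCA and 1 CATTCC. The peak at 41.3 kb held 2 CAGCTG and 1 AACCACA outside its centre.

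By the counts of peaks in the gene and its flanks, each after 30 cycles only, after 36 cycles only and in both lists, the protein-coding genes most like Myh9 among 21937 were Zeb2, Fbn1 and Rbms1, with Euclidean distances of 2.24, 4.12 and 4.47 over these 6 counts. They had 22, 22 and 19 peaks in this range. All are longer than Myh9, at 133.8, 207.4 and 213.0 kb.

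Other class II heavy chains were not alike in this respect. Myh14, the remaining nonmuscle chain (IIC), held 1 peak called in both lists and had 2 in the wider range, Myh15 had 4 with none inside, Myh7b had 1, and Myh13 had none, with its nearest peak 244.5 kb away. Thus 3 of 4 had a peak within 100 kb, beside 73.4% of all protein-coding genes. Across all 39 genes of the 4 further lists of myosin genes, 38 had a peak in the gene or within 100 kb, 18 in the gene and 9 within 1 kb of the start site, beside the shares of all protein-coding genes given above. Their median was 3 peaks, and the median of all protein-coding genes was 2.

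Light chain genes had peaks in range in 12 of 12 cases, beside 73.4% of all protein-coding genes, with a median of 4.5. A peak was held by 6, beside 24.6%, and start sites of 4 had a peak within 1 kb, beside 13.2%. Neighbouring genes of this list share peaks, so these counts are not independent. Myl6, which encodes the essential light chain of nonmuscle and smooth muscle myosin, had a peak across its start site and 8 in range, and its neighbour Myl6b, whose range overlaps, had 8 as well. Myl12b, a regulatory light chain of nonmuscle myosin, likewise had a peak across its start site, 3 within 1 kb and 12 in range. Myl4, the atrial and embryonic essential chain, had 11 in range, with the nearest 0.148 kb from its start site. Myl2, the ventricular and slow regulatory chain, had 1, and Mylpf, the fast skeletal one, had 4 with none inside.

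Among the 10 genes that control the light chains, all had a peak in range, 5 held 1 or more, and the median was 2. For all protein-coding genes, the shares were 73.4% in range, 24.6% in the gene and 13.2% within 1 kb of the start site. Start site peaks were found at Ppp1r12a, the myosin-binding subunit of myosin phosphatase (0.236 kb), Rock2, a kinase that inhibits it (0.24 kb), and Rhoa, the GTPase that activates that kinase (0.688 kb). Of the 13 genes of myosin folding and thick filament assembly, all had a peak in range and 6 held 1 or more, beside the same shares, and the median was 4. Mybph, a myosin-binding protein (0.511 kb), and S100a4, which binds the nonmuscle IIA chain (0.604 kb), had one within 1 kb of the start site. Myom1, an M-band protein, had 16, the most of these lists and named for that reason after the values were seen, and it lies next to Myl12a and Myl12b and shares peaks with them.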

How the data were processed

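Peak positions of 2 WFS1 ChIP-seq libraries were used. Per the study's methods, NextGenMap was the aligner the authors used, on GRCm38, samtools served to discard poorly mapped reads, and MACS2 was run on every library by itself, without pooling. The control of peak calling is not given in the sources used here. Each deposited line is a peak interval with no score attached.

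Both lists were joined where peaks overlapped or touched, as bedtools merge does. The annotation was GENCODE mouse release 21 (Ensembl 96), the 5′ end of a gene was taken as its start site, and sequences and promoters from RefSeq (GRCm38.p6). A peak counted for a gene when it overlapped the gene with 100 kb on each side by at least 1 bp, and distances run from the nearest edge. Intervals are 95% exact Poisson, exact binomial or Wilson intervals and cover counting error over peaks only. Like length means within 25%.

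Named genes are the members, Myh13, genes at member peaks, list genes whose start site had a peak within 1 kb, and the 3 genes most like Myh9. Names outside this rule are 2310065F04Rik, Mhrt, Mir208a, Mir208b, Tmem220, Txn2, the Apol genes, Myh7b, Myh14, Myh15, Myl2, Mylpf, Myl12a and Myom1, chosen after values were seen, as were the sequences printed. Members and lists were chosen with earlier results of these data known. Joining, counting and motif search were tested on simulated data. Peaks were joined in python by the rule of bedtools merge, and bedtools 2.31.1 served to check that joining. Intervals came from scipy 1.17.1, tables were handled in pandas 2.3.3 and numpy 2.4.6 under python 3.11.15, and plots were drawn with matplotlib 3.10.9.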

Additional observations from a re-analysis of the deposited data

How the results depend on the processing

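No paired analysis was possible because only 1 library represents each sonication condition. Without scores in the lists, the calling threshold could not be raised, and peaks at least as wide as the median joined peak were taken instead. The 8 peaks near muscle genes became 2 with 50 kb windows, 5 in the 30-cycle list alone and 4 among the wider peaks. The 29 peaks near nonmuscle genes became 13 among the wider peaks and, in an alternative added after the data were seen, 2 without Myh9. The 2 peaks of the chromosome 11 cluster became 0 without flanks, 1 with 50 kb flanks and 1 in the 30-cycle list alone. The ratio of nonmuscle to muscle density of 5.86 became 22.6 with 50 kb windows, where only 2 muscle peaks remained (exact interval 5.67 to 195.9). It turned to 0.754 without Myh9. Without Myh10, also an alternative added after the data were seen, the ratio compared Myh9 alone with the muscle genes. It was then 11.7, inside the interval of the main ratio. In gene bodies the ratio could not be computed because the muscle genes held no peak. In whole peaks, also added after the data were seen, the 5 member peaks with TGACTCA became 15, the 3 with AACCACA became 5, and the 1 with the loose MEF2-type pattern became 2. Smaller windows cannot hold more peaks and whole peaks cannot hold fewer motifs, by construction, and the cause of the other changes was not tested. The remaining 24 of these 37 values stayed within 1.5 times, or within the interval of the ratio. Among them, when peaks up to 500 bp apart were joined, the 29 peaks near nonmuscle genes became 20 and the 8 near muscle genes stayed 8. Of 40 distances of single members, 38 stayed within 1.5 times, and those of Myh9 in the 30-cycle list (1.55 kb) and of Myh10 in the 36-cycle list (173.2 kb) did not. The unknown depth of the lists limits every statement on genes without a peak.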
